A study of Mus musculus with 6 samples.

Results

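Scube1, Fras1, Pxdn, Prag1, Slc4a8, Cnnm1 and Zmat3 are 7 genes whose transcripts were lower in the prefrontal cortex of both groups of Shank3 mutant mice than in wild-type mice. They were picked on these same libraries because both mutant groups lay below wild type, and all 7 were found among the 18705 genes that passed the filter on low counts. The mice were 6 to 8 weeks old, and ribosomal RNA was removed from cortical RNA before sequencing, with 2 libraries from separate mice in each of 3 groups. The first group was Shank3 +/ΔC given GSK-LSD1, an inhibitor of the histone demethylase LSD1 (gene Kdm1a), and the second was Shank3 +/ΔC given vehicle. The third was wild type (C57BL/6 x C3H) given vehicle. The ΔC allele lacks the C-terminal part of Shank3, a protein that holds receptors and signalling proteins in place at excitatory synapses, and the mutants carry 1 such allele. The drug was given to mutants only, so its action in wild type was not measured here, and the strain background of the mutants is not given in the sources used here.

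The 7 genes do not belong to 1 pathway. Scube1 encodes a secreted and cell-surface protein with EGF-like repeats and a CUB domain, and its relative Scube2 helps release the morphogen Sonic hedgehog. Fras1 and Pxdn act in the extracellular matrix: Fras1 is a large basement membrane protein that works in a complex with Frem1 and Frem2, and Pxdn (peroxidasin) is a peroxidase that cross-links collagen IV. Prag1 (pragmin) is a pseudokinase, a kinase-like protein without usual catalysis, that binds the kinase Csk. Slc4a8 is a sodium-driven chloride/bicarbonate exchanger that keeps neurons from turning acidic. Cnnm1 is a cyclin M membrane protein of a family tied to magnesium handling. Zmat3 is a zinc finger protein that binds RNA and is a target of p53.

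Upstream sequence was held for 4 of the 7 genes in the RefSeq table used here (build GRCm38.p6). The 250 bases before each RefSeq start site are shown because LSD1 acts on chromatin. The 4 genes were chosen for the same direction against wild type. For Pxdn that site lies downstream of the gene start in the GENCODE M21 annotation (29937608), so its stretch falls within the GENCODE gene. Capitals mark matches, on either strand, to the GC box GGGCGG, the CCAAT box CCAAT and the E-box CACGTG. These matches do not overlap each other.
Scube1 (chr15:83725040-83725289, minus strand): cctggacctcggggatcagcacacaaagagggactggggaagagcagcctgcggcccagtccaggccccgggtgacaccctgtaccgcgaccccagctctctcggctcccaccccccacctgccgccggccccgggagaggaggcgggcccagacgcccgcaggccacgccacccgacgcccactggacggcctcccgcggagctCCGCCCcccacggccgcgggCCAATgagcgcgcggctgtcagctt
Pxdn (chr12:29937786-29938035, plus strand): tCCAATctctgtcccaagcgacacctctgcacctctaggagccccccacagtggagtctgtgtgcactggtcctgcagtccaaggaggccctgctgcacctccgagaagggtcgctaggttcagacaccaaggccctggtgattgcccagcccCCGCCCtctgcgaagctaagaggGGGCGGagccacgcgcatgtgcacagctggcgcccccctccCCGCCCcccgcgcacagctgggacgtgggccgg
Slc4a8 (chr15:100761497-100761746, plus strand): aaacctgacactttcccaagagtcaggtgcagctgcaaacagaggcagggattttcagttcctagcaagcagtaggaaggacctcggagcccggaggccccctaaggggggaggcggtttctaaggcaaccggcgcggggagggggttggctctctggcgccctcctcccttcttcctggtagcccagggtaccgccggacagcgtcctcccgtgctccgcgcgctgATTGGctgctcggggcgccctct
Cnnm1 (chr19:43440163-43440412, plus strand): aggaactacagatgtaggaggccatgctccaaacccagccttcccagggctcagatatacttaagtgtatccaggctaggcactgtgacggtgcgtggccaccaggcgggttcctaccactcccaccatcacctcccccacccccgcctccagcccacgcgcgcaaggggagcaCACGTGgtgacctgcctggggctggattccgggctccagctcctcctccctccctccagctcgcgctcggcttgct

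All 4 stretches were rich in G and C. The Scube1 stretch had a GC content of 75.2%, above 96.1% of 32851 RefSeq stretches of the same length, and 25 CpG dinucleotides, where the median stretch had 6. Pxdn, Slc4a8 and Cnnm1 had GC contents of 68%, 64.8% and 64.4%, against a median of 52.4%, and held 14, 16 and 12 CpG dinucleotides. The letters of the GC box occurred 3 times before Pxdn and 1 time before Scube1, and 32.7% of all stretches hold them. The CCAAT box occurred 1 time each before Pxdn, Scube1 and Slc4a8 (33.8% of all stretches), and the E-box 1 time before Cnnm1 (6.02%). None of the 4 held the TATA box TATAAA (12.4% of all stretches) or the EGR site GCGTGGGCG (0.536%), and none held the full cAMP response element TGACGTCA (1.55%). Its core TGACG, which lies within the full element, occurred 1 time before Cnnm1 (17.8% of all stretches). No motif searched was common to all 4. A match of letters is a description and not a measured binding site.

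Scube1, on chromosome 15 from 83604999 to 83725021 (GRCm38, minus strand), had 58.6 and 55.3 CPM in GSK-LSD1 mutants, 59.1 and 59.7 CPM in vehicle mutants and 112 and 101 CPM in wild type. CPM are read counts scaled to a common library size, so that libraries of unequal depth can be compared. The 4 mutant libraries lay close together and the wild-type pair stood far above, with no overlap. The log2 fold change, with its standard error (SE), was -0.84 ± 0.10 for vehicle mutants against wild type and -0.89 ± 0.11 for GSK-LSD1 mutants against wild type. These values led to the choice of the gene and are given as a description. The vehicle mutants held 56.0% of the wild-type mean and the GSK-LSD1 mutants 53.7%.

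Of the matrix genes, Fras1, on chromosome 5 from 96373955 to 96784728 (plus strand), had 78.8 and 76.9 CPM in GSK-LSD1 mutants, 75.9 and 73.8 CPM in vehicle mutants and 131 and 113 CPM in wild type. Both mutant groups were tight and close to each other, at 63.7% (GSK-LSD1) and 61.3% (vehicle) of the wild-type mean. Pxdn, on chromosome 12 from 29937608 to 30017658 (plus strand), was the least abundant of the 7, with 21.9 and 28.8 CPM in GSK-LSD1 mutants, 19.7 and 19.5 CPM in vehicle mutants and 34.3 and 41.1 CPM in wild type. Vehicle mutants had 51.9% of the wild-type Pxdn mean, the lowest such share among the 7 genes. In GSK-LSD1 mutants the share was 67.3%, and 1 of that pair of libraries lay well above the other. The log2 fold changes for vehicle mutants and for GSK-LSD1 mutants, each against wild type, were -0.71 ± 0.11 and -0.65 ± 0.11 for Fras1 and -0.95 ± 0.15 and -0.58 ± 0.15 for Pxdn.

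Prag1, the pseudokinase, on chromosome 8 from 36094828 to 36147787 (plus strand), had 49.3 and 52.4 CPM in GSK-LSD1 mutants, 38.3 and 42.5 CPM in vehicle mutants and 82.7 and 61.2 CPM in wild type. Its wild-type libraries were the most unequal of the 7 genes for their mean (72.0 ± 15.2 CPM, SD, n = 2). The lower of them stood 8.85 CPM above the higher GSK-LSD1 library. Fold changes on the log2 scale were -0.83 ± 0.13 for vehicle mutants and -0.50 ± 0.13 for GSK-LSD1 mutants against wild type.

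Slc4a8 and Cnnm1 are the 2 genes of ion handling. Slc4a8, on chromosome 15 from 100761747 to 100823968 (plus strand), had 113 and 103 CPM in GSK-LSD1 mutants, 116 and 116 CPM in vehicle mutants and 209 and 166 CPM in wild type. Cnnm1, on chromosome 19 from 43440436 to 43497210 (plus strand), had 52.7 and 61.1 CPM in GSK-LSD1 mutants, 62.8 and 64.5 CPM in vehicle mutants and 108 and 89.2 CPM in wild type. For both genes, as for every member but Pxdn, wild-type library 1 was the highest of the 6. The mutant groups lay next to each other, as they did for Scube1 and Fras1. Slc4a8 fell by 0.69 ± 0.12 in vehicle mutants and by 0.79 ± 0.12 in GSK-LSD1 mutants on the log2 scale, and Cnnm1 by 0.63 ± 0.12 and 0.79 ± 0.12 in the same order. Antisense genes overlap 2.17% and 0.437% of the exonic bases of Cnnm1 and 0.898% of those of Fras1, and since the strand setting of the counting is not given in the sources used here, reads of these cannot be told apart.

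Zmat3, the p53 target, on chromosome 3 from 32334792 to 32366014 (minus strand), had 101 and 109 CPM in GSK-LSD1 mutants, 129.6 and 120.5 CPM in vehicle mutants and 198 and 159.8 CPM in wild type. It was the only one of the 7 with gaps of more than 10 CPM between all 3 groups, the GSK-LSD1 mutants being lowest and the vehicle mutants in the middle. As a share of the vehicle mean, the gap between the mutant groups (9.56%) was smaller than for Prag1 (16.9%) and Pxdn (11.5%). Against wild type the log2 fold change of Zmat3 was -0.52 ± 0.11 in vehicle mutants, the smallest of the 7, and -0.77 ± 0.12 in GSK-LSD1 mutants.

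**Figure D1:**
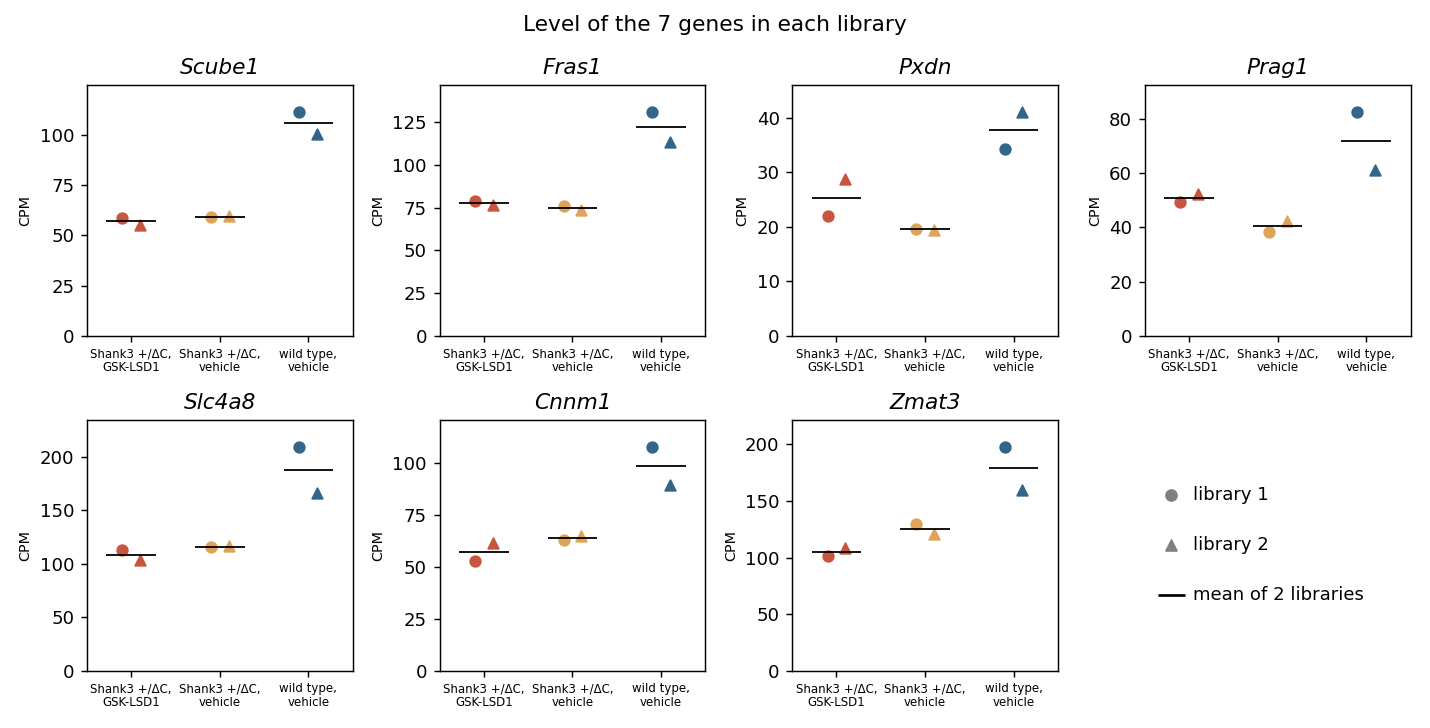
Level of each of the 7 genes in CPM (vertical axes, from 0) in the 2 libraries of each group, with the mean as a line. In every panel both wild-type libraries lie above all 4 mutant libraries. The mutant groups lie close together for Scube1, Fras1, Slc4a8 and Cnnm1 and farther apart for Pxdn, Prag1 and Zmat3.

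The members' choice fixed the direction of both comparisons with wild type. With edgeR's quasi-likelihood test and an adjusted p under 0.05, all 7 were called lower in vehicle mutants, where 0.994% of tested genes were called lower and 0.278% higher. In GSK-LSD1 mutants 6 were called lower, all but Prag1, where 1.99% of tested genes were lower and 0.636% higher. The 6 genes called lower in both stand beside 0.765% of tested genes. In all 7 genes the libraries of either mutant group lay below both wild-type libraries without overlap, as in 23.1% (vehicle) and 22.4% (GSK-LSD1) of tested genes, or 46.2% and 45.8% in either direction. Both comparisons share the wild-type libraries, so they are not separate evidence. The calls leaned on single libraries: without wild-type library 1, 2 of 7 were called in vehicle mutants and 1 in GSK-LSD1 mutants, and without Shank3 vehicle library 1 or 2, 1 and 3 of 7 were called in vehicle mutants. In GSK-LSD1 mutants the call of Pxdn was also lost without wild-type library 2 or GSK-LSD1 library 1, and Prag1 was called without wild-type library 2 or Shank3 vehicle library 2. Scube1 was called in each of the 6 fits with 1 library left out, in both comparisons, with log2 fold changes from -0.91 to -0.77 in vehicle mutants and from -0.97 to -0.82 in GSK-LSD1 mutants. Over the same fits Zmat3 ranged from -0.67 to -0.36 and Slc4a8 from -0.86 to -0.53 in vehicle mutants, and Prag1 from -0.71 to -0.27 in GSK-LSD1 mutants.

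The comparison of GSK-LSD1 with vehicle in the mutants was not itself used by the rule, but it uses the same libraries. The rule also required GSK-LSD1 mutants to lie below wild type, so a gene raised to the wild-type level could not be a member. The count of members called here is limited by that choice. It does not tell whether the inhibitor moves genes that are lowered in the mutants. None of the 7 passed edgeR's test over all genes, where 0.107% of tested genes did (0.102% higher, 0.00535% lower), and none was called by DESeq2 or limma-voom. At an unadjusted p under 0.05 there were 3 of 7 (5.7% of tested genes): Pxdn and Prag1, which were higher with the inhibitor, and Zmat3, which was lower. Pxdn averaged 25.4 ± 4.88 CPM in GSK-LSD1 mutants and 19.6 ± 0.154 CPM in vehicle mutants (SD, n = 2 each; log2 fold change 0.37 ± 0.15, edgeR adjusted p = 0.799). Prag1 averaged 50.9 ± 2.18 CPM in GSK-LSD1 mutants and 40.4 ± 2.94 CPM in vehicle mutants (0.33 ± 0.13, edgeR adjusted p = 0.791). Zmat3 averaged 105 ± 5.34 CPM in GSK-LSD1 mutants and 125 ± 6.45 CPM in vehicle mutants (-0.26 ± 0.12, edgeR adjusted p = 0.851).

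The other 4 genes had smaller differences between the mutant groups. The log2 fold change of GSK-LSD1 against vehicle was -0.06 ± 0.11 for Scube1, 0.06 ± 0.11 for Fras1, -0.10 ± 0.12 for Slc4a8 and -0.17 ± 0.12 for Cnnm1, with edgeR adjusted p-values from 0.981 to 0.999. The 2 libraries of each mutant group did not overlap for any of the 7 genes, with 3 higher and 4 lower with the inhibitor, against 33.6% of tested genes in either direction, but for Scube1, Fras1, Slc4a8 and Cnnm1 the gap was 0.863% to 2.62% of the vehicle mean. The gap was 16.9% of that mean for Prag1, 11.5% for Pxdn and 9.56% for Zmat3. Under 15 other settings each gene kept its sign in this comparison, and no adjusted p fell below 0.308, which was that of Pxdn.

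**Figure D2:**
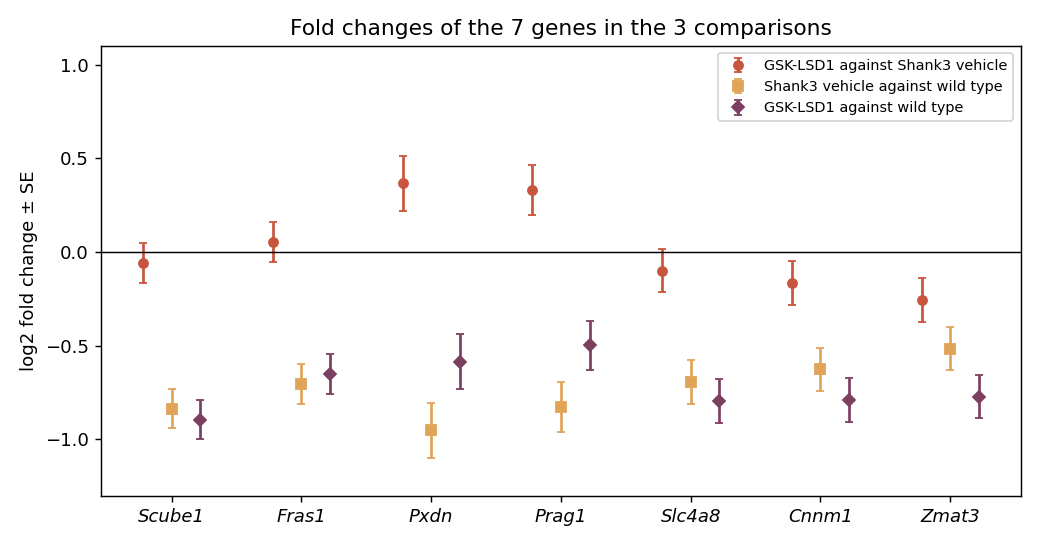
Log2 fold change of each gene with its SE (vertical axis) in the 3 comparisons, from edgeR's fit of all 6 libraries. Values against wild type lie between -0.95 and -0.50, while those of GSK-LSD1 against vehicle lie between -0.26 and 0.37, on both sides of 0.

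Compared per length of their exons, the order of the genes was nearly the same in each group. Cnnm1 had the highest level, at 9.95, 11.1 and 17.2 CPM per kb in GSK-LSD1 mutants, vehicle mutants and wild type. Zmat3 followed with 9.16, 10.9 and 15.6 CPM per kb, then Slc4a8 with 8.31, 8.91 and 14.4 CPM per kb, in the same order of groups. Scube1 came next in each group and Pxdn last, at 2.63, 2.03 and 3.91 CPM per kb. Only Prag1 and Fras1 changed places: Prag1 had 5.29, 4.21 and 7.49 CPM per kb and Fras1 4.40, 4.23 and 6.90, so that they were level in vehicle mutants.

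A property that the rule did not use is length. The median exonic length of the 7 genes was 9.83 kb, against 3.79 kb for tested genes with annotation in GENCODE M21. Fras1, at 17.7 kb, was longer than 98.9% of tested genes and Slc4a8 than 96.5%. Zmat3 (11.4 kb), Scube1 (9.83 kb), Pxdn (9.65 kb) and Prag1 (9.61 kb) were above 91.1% to 94.6% of genes, and Cnnm1 (5.72 kb) above 71.2%. Among 1666 other genes with at least 9 kb of exons and a mean of at least 10 CPM, 4.44% were called lower in vehicle mutants and 9.06% in GSK-LSD1 mutants, against 1.19% and 2.43% of 8261 shorter genes. The median log2 fold changes of the long genes were -0.11 in vehicle mutants and -0.14 in GSK-LSD1 mutants and those of the shorter genes were -0.02 and -0.01. The 9 kb cut lies below the exonic length of every member but Cnnm1, and no other cut was tried. The part of length in the members' values was not tested.

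**Figure D3:**
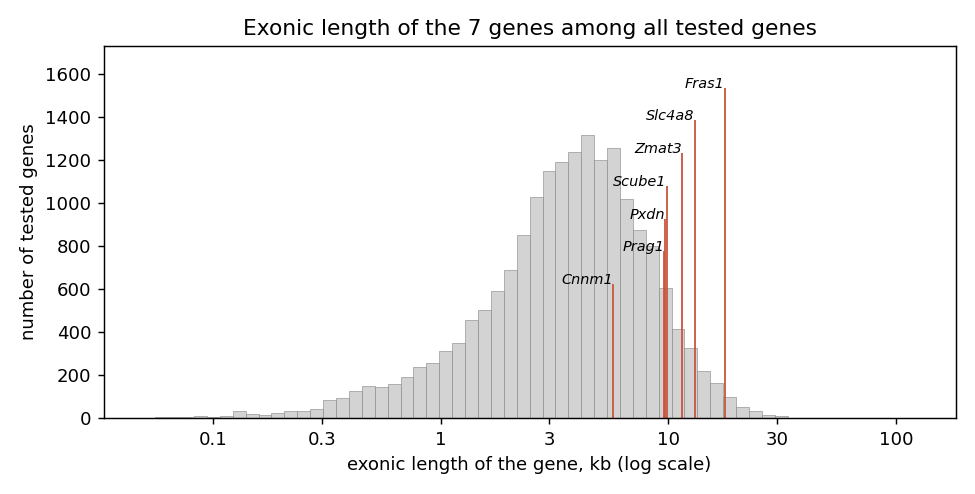
Number of tested genes by exonic length in kb (horizontal axis, log scale), with a line at the length of each of the 7 genes; the height of the lines only spaces the names. Of the 7, 6 lie at 9.61 kb or above, right of most tested genes, whose median is 3.79 kb.

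Scube1 and Slc4a8 share chromosome 15 with Shank3, which is the mutated gene. Their start coordinates lie 5.89 Mb (Scube1) and 11.3 Mb (Slc4a8) from that of Shank3, on either side of it. Of 431 other tested genes within 20 Mb of Shank3, 1.16% were called lower in vehicle mutants and 1.86% in GSK-LSD1 mutants. On the other chromosomes, with the members left out, the shares were 0.956% and 1.97% of 17784 genes. Whether alleles linked to the Shank3 mutation bear on Scube1 or Slc4a8 was not tested.

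Of 133 listed paralogues and partners 125 could be tested. In vehicle mutants against wild type 3 fell and 2 rose (1.27% of all tested genes were called in either direction), and in GSK-LSD1 mutants against wild type 3 fell and 1 rose (2.62%). At an unadjusted p under 0.05 there were 32 of 125 in vehicle mutants and 34 in GSK-LSD1 mutants against wild type, in both directions together, beside 14% and 15.7% of all tested genes. In GSK-LSD1 against vehicle mutants 0 passed edgeR's test, 16 had an unadjusted p under 0.05, and Btg2, a p53 target that neural activity also induces, was the 1 gene called by DESeq2 and by limma-voom (log2 fold change 1.36 ± 0.26, edgeR adjusted p = 0.225; named after its value was seen). The medians of the 125 genes were -0.04, 0.03 and 0.05 in vehicle mutants against wild type, GSK-LSD1 mutants against wild type and GSK-LSD1 against vehicle mutants, beside 0.02, 0.02 and -0.0007 for all tested genes.

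Among 17 tested genes of the SCUBE family and the hedgehog pathway, 1 rose and 1 fell in vehicle mutants against wild type. Hhip, a surface antagonist of hedgehog ligands, had 10.7 and 12.5 CPM in GSK-LSD1 mutants, 12.5 and 16.0 CPM in vehicle mutants and 7.94 and 7.44 CPM in wild type. It rose in vehicle mutants (log2 fold change 0.89 ± 0.19, edgeR adjusted p = 0.0302), and all mutant libraries were above both wild-type ones. Disp2, of the family of the ligand-releasing protein Dispatched, fell there (-0.51 ± 0.12, edgeR adjusted p = 0.0415), with 367 and 391 CPM in GSK-LSD1 mutants, 371 and 312 CPM in vehicle mutants and 522 and 455 CPM in wild type. In GSK-LSD1 mutants against wild type 0 of the 17 passed edgeR's test, 6 had an unadjusted p under 0.05, DESeq2 called 1 and limma-voom 0. The paralogues of Scube1 were scarce: Scube3 had 3.69 and 5.72 CPM in GSK-LSD1 mutants, 4.69 and 7.39 CPM in vehicle mutants and 2.67 and 2.60 CPM in wild type, a positive difference in vehicle mutants that narrowly missed the threshold (1.20 ± 0.29, edgeR adjusted p = 0.0512). Scube2 lay between 0.976 and 2.30 CPM in all 6 libraries.

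Of the 7 tested partners of Fras1 in the Fraser complex list, 0 passed edgeR's test in any comparison, DESeq2 and limma-voom also called 0, and 1 (vehicle mutants against wild type), 2 (GSK-LSD1 mutants against wild type) and 2 (GSK-LSD1 against vehicle) had an unadjusted p under 0.05. Frem1 and Frem2, which build the matrix complex with Fras1, lay at 3.65 to 6.02 and at 3.58 to 7.63 CPM over the 6 libraries, far below Fras1. Frem3 stayed between 0.181 and 1.70 CPM. Among 18 tested basement membrane genes, where the collagen IV substrate of Pxdn belongs, Sparc, a matrix glycoprotein that binds collagen, rose in vehicle mutants (0.68 ± 0.12, edgeR adjusted p = 0.0178) and in GSK-LSD1 mutants (0.45 ± 0.12, edgeR adjusted p = 0.0473) against wild type. The other 17 did not pass edgeR's test in either comparison, while DESeq2 called 2 of the 18 in each. Col4a1 differed by -0.05 ± 0.15 and Col4a2 by -0.48 ± 0.14 in vehicle mutants against wild type (edgeR adjusted p = 0.928 and 0.108).

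The closest relative of Prag1 was also lower. Peak1, a related pseudokinase, had 46.5 and 51.4 CPM in GSK-LSD1 mutants, 50.4 and 47.7 CPM in vehicle mutants and 81.1 and 64.5 CPM in wild type. It fell in both, with log2 fold changes of -0.57 ± 0.12 in vehicle mutants (edgeR adjusted p = 0.0302) and -0.57 ± 0.12 in GSK-LSD1 mutants (edgeR adjusted p = 0.0181). The other 13 tested genes of this list, which holds Csk and Src family genes among others, did not pass edgeR's test in either comparison with wild type, while DESeq2 called 1 of the 14 in vehicle mutants and 2 in GSK-LSD1 mutants. Csk, the binding partner of Prag1, had 25.6 and 25.4 CPM in GSK-LSD1 mutants, 21.8 and 23.4 CPM in vehicle mutants and 28.6 and 21.9 CPM in wild type.

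In the list of acid-base genes around Slc4a8, 0 of 23 passed edgeR's test in vehicle mutants against wild type (9 at an unadjusted p under 0.05, beside the 14% of all tested genes, and 0 by DESeq2 and by limma-voom), with a median of -0.21. In GSK-LSD1 mutants against wild type 2 fell, among them Car10, a carbonic anhydrase relative without catalysis (-0.48 ± 0.11, edgeR adjusted p = 0.0205). The paralogues named here moved less than Slc4a8 did in vehicle mutants against wild type. They stood at -0.26 ± 0.12 for Slc4a10, -0.27 ± 0.12 for Slc4a7, -0.21 ± 0.12 for Slc4a3 and 0.20 ± 0.11 for Slc4a4. None of them passed, and Slc4a5 could not be tested. The differences between paralogues were not tested. Of 16 cyclin M and magnesium genes 0 passed edgeR's test in any comparison (4, 3 and 2 at an unadjusted p under 0.05 in vehicle mutants against wild type, GSK-LSD1 mutants against wild type and GSK-LSD1 against vehicle; DESeq2 called 1 in the first, limma-voom 0). Cnnm2, Cnnm3 and Cnnm4 stood at -0.31 ± 0.12, -0.10 ± 0.15 and -0.42 ± 0.15 in vehicle mutants.

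Among 30 tested genes of the ZMAT family and the p53 response, Tigar, an enzyme of sugar phosphate metabolism, fell in vehicle mutants against wild type (-0.62 ± 0.13, edgeR adjusted p = 0.0302). It had 28.7 and 23.8 CPM in GSK-LSD1 mutants, 21.7 and 23.6 CPM in vehicle mutants and 36.2 and 33.8 CPM in wild type. The other 29 did not pass edgeR's test, and the median was 0.01. In GSK-LSD1 mutants against wild type 0 of 30 passed edgeR's test, 8 had an unadjusted p under 0.05, DESeq2 called 1 and limma-voom 0. Trp53 itself differed by 0.03 ± 0.22 in vehicle mutants, and the p53 target Cdkn1a lay between 7.63 and 9.29 CPM in all 6 libraries. Zmat1 stood at -0.51 ± 0.16 in vehicle mutants (edgeR adjusted p = 0.149), and Zmat2, Zmat4 and Zmat5 at 0.06 ± 0.13, 0.04 ± 0.12 and 0.04 ± 0.22. The calls of Hhip, Disp2, Sparc, Peak1 and Tigar in vehicle mutants were lost without wild-type library 1 and without either Shank3 vehicle library (adjusted p up to 0.574), that of Hhip also without wild-type library 2. In GSK-LSD1 mutants those of Sparc, Peak1 and Car10 were lost without wild-type library 1 (up to 0.557). Those of Sparc and Peak1 were also lost without GSK-LSD1 library 1, those of Sparc and Car10 without GSK-LSD1 library 2, that of Sparc without Shank3 vehicle library 1 and that of Car10 without wild-type library 2.

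**Figure D4:**
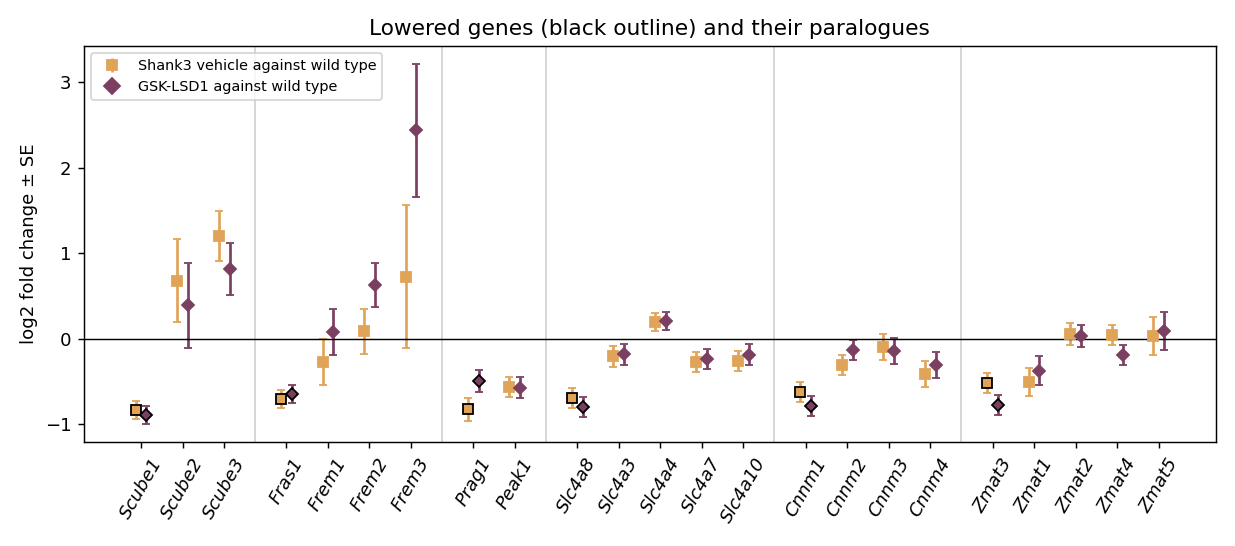
Log2 fold change with SE (vertical axis) of 6 of the lowered genes, outlined in black, and of their named paralogues, in vehicle mutants and in GSK-LSD1 mutants against wild type. The outlined genes lie at -0.50 or below in both, as does Peak1, while other paralogues, such as Scube3 at 1.20 in vehicle mutants, do not.

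The genes most like the members in pattern were found by a fixed measure. It favours genes lower in both mutant groups, the pattern the members were chosen for, so closeness is a description only. Likeness was the root mean square difference of log2 CPM, each gene centred on its own mean over the 6 libraries, among 9301 genes with a mean of at least 10 CPM. For Slc4a8 the closest was Grin2b, an NMDA receptor subunit, at 0.05, and Grin2b was the second closest to Scube1, at 0.08, after the zinc finger gene Zfp362 at 0.07. Fras1 was closest to Tenm4, a teneurin adhesion protein (0.05), Cnnm1 to Arid1a, a subunit of a chromatin remodeller (0.04), and Zmat3 to Gfra2, a receptor for neurturin (0.04). Pxdn had no match that near: its closest gene was Reln, at 0.16, and Prag1 was closest to the protocadherin Pcdh19 at 0.09. Other close genes were shared too: Gfra2 and Ntrk3 by Cnnm1 and Zmat3, and Kcng3 by Pxdn and Prag1. Among the members themselves Cnnm1 and Zmat3 were the nearest pair (0.07) and Pxdn and Zmat3 the farthest (0.32).

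Some cell type markers moved in the same libraries. The summed level of 10 excitatory neuron markers was 4464 and 4011 CPM in GSK-LSD1 mutants, 4524 and 4515 CPM in vehicle mutants and 6136 and 5482 CPM in wild type, with 4 and 2 of the 10 called lower against wild type in GSK-LSD1 and vehicle mutants. All of these calls were lost without wild-type library 1, those in vehicle mutants also without either Shank3 vehicle library, that of Tbr1 without GSK-LSD1 library 2 and that of Nrgn without any 1 library. Like 6 of the 7 members, this sum was higher in wild-type library 1 than in library 2. Of its 10 genes, 8 had a negative log2 fold change in vehicle mutants against wild type and 9 in GSK-LSD1 mutants. The genes did not fall alike: Slc17a7 averaged 1349 CPM in vehicle mutants and 1799 CPM in wild type, and Grin2b 989 and 1647 CPM. Together Slc17a7 and Grin2b carried most of the difference in the sum. Camk2a differed by -0.05 ± 0.12 and Neurod6 by 0.06 ± 0.13 there, and Slc17a6 was higher (0.57 ± 0.17, edgeR adjusted p = 0.11). In bulk tissue, fewer cells of a type and less RNA per cell cannot be told apart. The 12 inhibitory neuron markers summed to 980 and 1073 CPM in GSK-LSD1 mutants and 937 and 1099 CPM in vehicle mutants. In wild type they summed to 979 and 1014 CPM, and 0 were called in any comparison. The 12 astrocyte markers summed to 5926 and 6052 CPM in GSK-LSD1 mutants, 5948 and 6164 CPM in vehicle mutants and 4318 and 5355 CPM in wild type, with 4 and 3 called higher. Each of these calls was lost without wild-type library 1, those in GSK-LSD1 mutants also without GSK-LSD1 library 2 and those in vehicle mutants without either Shank3 vehicle library. The Aqp4 calls were also lost without wild-type library 2, and that of Aldh1l1 without GSK-LSD1 library 1 or Shank3 vehicle library 1. The 14 oligodendrocyte markers summed to 2518 and 5909 CPM in GSK-LSD1 mutants and 6204 and 6258 CPM in vehicle mutants. In wild type they summed to 2728 and 2479 CPM, and edgeR called 0 in any comparison. In vehicle mutants against wild type DESeq2 called 1 and limma-voom 3. The median log2 fold change there was 0.93, and 0 of the 14 were negative. The 12 endothelial markers, the class of cells that makes much of the vessel basement membrane, summed to 288 and 255 CPM in GSK-LSD1 mutants, 279 and 327 CPM in vehicle mutants and 255 and 274 CPM in wild type. The 10 markers of oligodendrocyte precursors summed to 462 and 591 CPM in GSK-LSD1 mutants, 509 and 588 CPM in vehicle mutants and 357 and 411 CPM in wild type. In vehicle mutants against wild type 1 marker each of 4 lists was called higher: Gpr17 (precursors), Itgam (12 microglia markers), Itm2a (endothelial) and Rgs5 (9 pericyte markers). These 4 calls were lost without wild-type library 1 or Shank3 vehicle library 2, all but that of Gpr17 without Shank3 vehicle library 1, and that of Itm2a without wild-type library 2. In GSK-LSD1 mutants 5 tested hypothalamus and septum markers summed to 286 and 353 CPM, against 128 and 131 CPM in vehicle mutants and 154 and 125 CPM in wild type. Of these 5, Hap1 and Baiap3 rose in GSK-LSD1 against vehicle mutants and carried most of the sum. Hap1 alone had 218 and 232 CPM in GSK-LSD1 mutants and 98.9 and 89.1 CPM in vehicle mutants. In wild type it had 125 and 99.5 CPM. The list was drawn up with earlier results of these data known, so its sum is no separate evidence on tissue. A further 9 listed markers, among them Avp, Oxt and Pmch, did not pass the filter on low counts. Meningeal fibroblast markers, a source of matrix transcripts, summed to 204 and 149.6 CPM in GSK-LSD1 mutants, 315 and 455 CPM in vehicle mutants and 212 and 139 CPM in wild type. Col1a1 and Col1a2 carried most of the differences in that sum. The other 7 tested markers summed to 133 and 109 CPM in GSK-LSD1 mutants and 91.1 and 118 CPM in vehicle mutants. In wild type they summed to 89.1 and 99.4 CPM. Most of this remainder was Pdgfra, which is also in the list of oligodendrocyte precursors. It had 86.5 and 86.3 CPM in GSK-LSD1 mutants, 69.8 and 87.9 CPM in vehicle mutants and 59.6 and 69.2 CPM in wild type. Of 10 choroid plexus and ependymal markers, Folr1, Kcne2 and Otx2 did not pass the filter on low counts, and the 7 tested summed to 11.8 and 27.5 CPM in GSK-LSD1 mutants, 10.8 and 14.2 CPM in vehicle mutants and 10.5 and 9.79 CPM in wild type. Kl and Clic6 of these were called higher in GSK-LSD1 mutants against wild type, both calls being lost without wild-type library 1 and that of Clic6 also without wild-type library 2 or GSK-LSD1 library 2. The part of these cell type levels in the members' values was not tested.

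**Figure D5:**
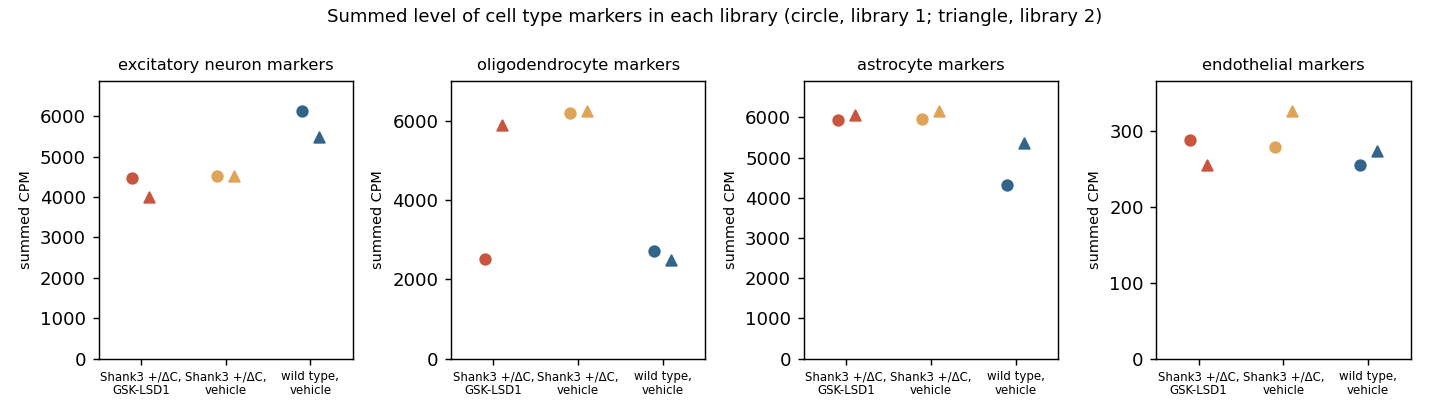
Summed CPM of the markers of 4 cell types (vertical axes, from 0) in each library. The excitatory neuron sum is lower in all 4 mutant libraries (4011 to 4524 CPM) than in wild type (5482 and 6136 CPM). Slc17a7 and Grin2b carry most of that difference, and not all markers of the list are lower. The oligodendrocyte sum splits the GSK-LSD1 pair.

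The libraries held 14133834 to 28646960 counted reads, and each member had between 423 and 4605 reads in a library. Shank3 itself lay at 159 and 148 CPM in GSK-LSD1 mutants, 146 and 174 CPM in vehicle mutants and 153 and 159.9 CPM in wild type, but this count covers exons that the mutation leaves in place and so says little about genotype. Kdm1a, which encodes LSD1, lay between 86.3 and 102 CPM in all 6 libraries. All 10 excitatory and 12 inhibitory neuron markers were measured.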

How the data were processed

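Bulk RNA-seq of prefrontal cortex was analysed in 6 libraries, 2 per group. Each deposited file lists unnormalised read counts for 54134 gene symbols. Per the submitters' processing notes, cutadapt, TopHat2, SAMtools, featureCounts and edgeR were used with the build mm10 (GRCm38). Their versions, the annotation and the strand setting were not given in the sources used here. Per the labels' protocols the libraries were stranded and the samples biological duplicates. The members and gene lists were chosen with earlier results of these data known, so no list here is independent support.

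All rows were fitted together in R 4.3.3 with edgeR 4.0.16 (filterByExpr, TMM scaling, a robust quasi-likelihood model of 3 groups, two-sided tests, Benjamini-Hochberg adjustment over 18705 genes, threshold 0.05), which leaves 3 residual degrees of freedom. Each SE was obtained as the size of the log2 fold change over the root of its F statistic. CPM use TMM-scaled totals of the counts. limma 3.58.1 and DESeq2 1.42.0 were alternatives, beside other scalings, filters and left-out libraries. The procedure was tested on simulated data. Named genes were the members, fixed paralogues, up to 4 called genes per list and the 3 genes closest in pattern to each member; 1 called gene is not reported here. Of tested symbols 98.7% matched GENCODE M21, and promoters came from RefSeq GRCm38.p6. Depth was 14133834 to 28646960 reads, so 3 reads correspond to 0.105 to 0.212 CPM, for counting error only. Within each group the 2 libraries differed beyond counting noise, with a chi-square of 9.07 to 12.0 per degree of freedom.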

Additional observations from a re-analysis of the deposited data

How the results depend on the processing

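No log2 fold change of a member changed sign under any alternative. For both comparisons with wild type the choice of the members had fixed this in advance, so it is no sign of robustness. The number of members called in GSK-LSD1 against vehicle was 0 in all alternatives with 2 libraries per group. The medians of gene lists and length classes were not recomputed under the alternatives. Library size scaling moved the median of all genes by 0.073 in vehicle mutants and 0.081 in GSK-LSD1 mutants against wild type. The medians of the shorter genes given above were -0.02 and -0.01. In vehicle mutants against wild type 238 genes passed, 52 higher and 186 lower; the count was 35 with library size scaling (15 higher, 20 lower), 141 with upper quartile scaling (45 higher, 96 lower), 807 with any gene of at least 1 read, 602 with DESeq2, 137 with limma-voom, 11 without the robust option and 524 with only the 4 libraries compared. Without the robust option 3 of the 7 members were called. For the related genes the count of 5 became 1 with library size scaling, 16 with the loose filter, 3 with limma-voom, 0 without the robust option and 9 with the 4 libraries. In GSK-LSD1 against vehicle the 20 genes became 106 with the loose filter and 35 with DESeq2, and 1 related gene passed with the loose filter, DESeq2, limma-voom, the fit without the robust option, the 4 libraries and the replicate block. In GSK-LSD1 mutants against wild type 491 genes (119 higher, 372 lower) became 253 with library size scaling (111 higher, 142 lower), 962 with the loose filter and 782 with DESeq2, and the 4 related genes became 2, 8 and 8 under these settings. With each library left out in turn, the counts in vehicle mutants against wild type ran from 6 to 656 genes, 1 to 7 members and 0 to 12 related genes. In GSK-LSD1 mutants against wild type they ran from 6 to 631, 1 to 7 and 0 to 6, and in GSK-LSD1 against vehicle from 10 to 83, 0 to 0 and 0 to 1. A left-out library leaves its group with 1, assumed to vary like the others. The cause of these changes was not tested. With the replicate number as a block, 233, 18 and 505 genes and 7, 0 and 6 members were called in vehicle mutants against wild type, GSK-LSD1 against vehicle and GSK-LSD1 against wild type. The numbers do not pair the samples: deviations of same-numbered libraries correlated at -0.08, 0.16 and -0.07 in the same order. Each member had at least 423 reads in every library.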
